A study of Mus musculus with 16 samples.

Results

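Genomic imprinting was followed in memory CD4+ T cells through 39 imprinted genes, picked by gene name and not by any measured value. All 39 were found among the 56748 genes of the deposited tables, each with an estimated read count and a TPM value in every one of 16 samples. TPM, the length-corrected share of a transcript among all transcripts of a sample, was used wherever levels of different genes are set side by side. CPM, the counts of a gene scaled to the library total after TMM normalization over the 16 samples, was used to compare the same gene between samples. In tissues where they are imprinted, 21 of these genes are usually transcribed from the paternal allele and 17 from the maternal allele. Gnas is used from both alleles or from the maternal one, depending on the transcript. Whether each gene is imprinted in memory CD4+ T cells was not examined. RNA-seq counts of this kind sum over both alleles, so that the allele in use was not measured.

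At an imprinted locus, DNA methylation laid down in the egg or the sperm marks one parental copy, and the mark is kept in the embryo while most other methylation is erased. ZFP57 and its relative ZFP445 bind the methylated copy and recruit TRIM28 and the histone methyltransferase SETDB1, which deposits H3K9me3. This is the histone mark that HP1α (Cbx5), HP1β (Cbx1) and HP1γ (Cbx3) recognise, and this link is why imprinted genes were looked at in T cells without HP1α or HP1γ.

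Memory CD4+ T cells, sorted as CD44-high cells with low or no CD25, came from the spleen of young adult, sex-matched littermates, without any treatment, in 4 groups of 4 samples. In the HP1α line, a floxed Hp1a allele had been excised with CMV-cre, which acts in every tissue, and HP1α KO mice (Hp1a-/-) were compared with WT (Hp1a+/+) littermates. In the HP1γ line, WT and HP1γ KO littermates were homozygous for a floxed Hp1g allele, and the KO also carried Cd4-cre, which acts from the thymus on, so that effects of the Cre transgene and of HP1γ loss cannot be told apart. Both lines were kept on a mixed 129/Sv and C57BL/6 background, and line, background and breeding cannot be told apart between them. Nothing in the labels ties a sample to a single mouse, so that p-values measure the spread between these samples, which may in part be technical.

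Counts summed to between 26694045 and 40199637 per sample (median 32360727). At this depth 3 counts, the limit used below for silence, corresponded to between 0.07503 and 0.1137 CPM. The targeted genes were examined first. Cbx3 lay between 45.9 and 50.2 CPM in HP1γ KO and between 73.4 and 92.4 CPM in WT littermates (log2 fold change -0.82, edgeR adjusted p = 0.0015), and Cbx5 lay between 23.0 and 29.0 CPM in HP1α KO and between 33.8 and 54.0 CPM in WT (-0.58, edgeR adjusted p = 0.946). In the HP1γ line Cbx5 lay between 20.1 and 29.8 CPM in KO and between 27.1 and 37.3 CPM in WT. Both ranges overlapped with HP1α KO, so that the Cbx5 level does not set the HP1α KO samples apart. Transcripts of a deleted gene can persist outside the removed exons, and these gene-level values do not show which exons were read. The summed TPM of 8 T cell and memory markers (Cd3e, Cd3g, Cd4, Cd44, Trac, Trbc1, Trbc2, Il7r) lay between 6546 and 7749. The sums of 6 B cell markers (5.75 to 20.9 TPM), 7 myeloid markers (36.3 to 152 TPM) 2 CD8 markers (5.11 to 18.05 TPM), 3 NK cell markers (33.2 to 61.1 TPM), 6 stromal markers (57.7 to 76.8 TPM) and 3 regulatory T cell markers (85.8 to 174 TPM) were far lower, and no marker gene was at 0 in all samples. Most of the stromal sum was Pecam1 (mean 63.6 TPM), and Foxp3 alone had a mean of 52.9 TPM (34.2 to 90.0). Sums of unlike markers do not measure the share of other cells. The sum of 5 haemoglobin and platelet markers varied widely, from 33.1 to 2410 TPM.

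The promoters of the genes on which the comparisons below turn are shown first, since imprinted promoters are where the parental mark is read. Each is the RefSeq window of 300 bases around the transcription start (build GRCm38.p6, 5' to 3' on the gene's strand), and capitals mark TGCCGC or its reverse complement GCGGCA, the core of the ZFP57 motif. Plagl1 (chr10:13090582-13090881, plus strand) and Zdbf2 (chr1:63200108-63200407, plus strand, the upstream one of its windows) differed between the WT samples of the lines. Snrpn (chr7:60005150-60005449, minus strand) and Kcnq1ot1 (chr7:143296498-143296797, minus strand) had the smallest p-values in HP1γ KO. Where a gene has several windows, the one with the most matches is shown.
Plagl1: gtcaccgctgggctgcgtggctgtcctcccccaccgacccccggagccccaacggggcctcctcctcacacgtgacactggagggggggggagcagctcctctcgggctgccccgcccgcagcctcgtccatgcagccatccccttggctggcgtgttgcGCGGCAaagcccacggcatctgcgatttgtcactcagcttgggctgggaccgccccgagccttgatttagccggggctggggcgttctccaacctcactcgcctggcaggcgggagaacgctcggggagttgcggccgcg
Zdbf2: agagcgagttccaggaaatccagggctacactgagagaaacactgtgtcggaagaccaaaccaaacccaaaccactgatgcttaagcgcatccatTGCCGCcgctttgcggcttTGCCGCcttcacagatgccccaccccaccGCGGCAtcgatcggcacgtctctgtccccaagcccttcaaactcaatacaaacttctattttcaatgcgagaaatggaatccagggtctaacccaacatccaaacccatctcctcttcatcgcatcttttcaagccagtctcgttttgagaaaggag
Snrpn: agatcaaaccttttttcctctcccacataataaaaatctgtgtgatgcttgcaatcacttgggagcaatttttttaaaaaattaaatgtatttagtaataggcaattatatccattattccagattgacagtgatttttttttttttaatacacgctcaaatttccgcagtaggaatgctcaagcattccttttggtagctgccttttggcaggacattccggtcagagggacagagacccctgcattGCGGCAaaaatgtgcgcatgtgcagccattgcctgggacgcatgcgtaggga
Kcnq1ot1: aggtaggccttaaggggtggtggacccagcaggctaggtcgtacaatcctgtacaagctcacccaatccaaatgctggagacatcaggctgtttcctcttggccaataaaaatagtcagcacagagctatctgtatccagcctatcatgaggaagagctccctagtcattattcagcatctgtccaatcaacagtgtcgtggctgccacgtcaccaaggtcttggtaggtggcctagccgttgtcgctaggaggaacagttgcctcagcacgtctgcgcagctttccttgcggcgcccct
The Zdbf2 window held 3 matches, the Plagl1 and Snrpn windows 1 each and the Kcnq1ot1 window 0. The other window of Zdbf2, the other 3 windows of Snrpn and the 4 windows of Gnas held 0 matches. RefSeq windows were found for 30 of the 39 genes, and 11 of these 30 (36.7%) held the hexamer in at least one window, against 13.1% of 27025 genes with a window. The median ratio of observed to expected CpG was 0.604 over the 46 windows of these genes and 0.384 over all windows. A match of letters is not a bound site, and these windows do not cover methylated regions that lie away from a start.

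The imprinted genes were first sorted by their level in memory CD4+ T cells. A gene was called expressed at a mean of at least 1 TPM over the 16 samples, silent at no more than 3 counts in every sample, and low otherwise. By this rule 19 genes were expressed (48.7%, against 23.3% of all genes in the tables), 12 were low and 8 were silent (20.5%, against 61.3% of all genes). Of the usually maternal genes 10 were expressed, 4 low and 3 silent, and of the usually paternal genes 8 were expressed, 8 low and 5 silent. In bulk samples, fewer cells that express a gene and less of its RNA per cell cannot be told apart. The number expressed was 25 with a limit of 0.1 TPM and 13 with a limit of 5 TPM.

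**Figure D1:**
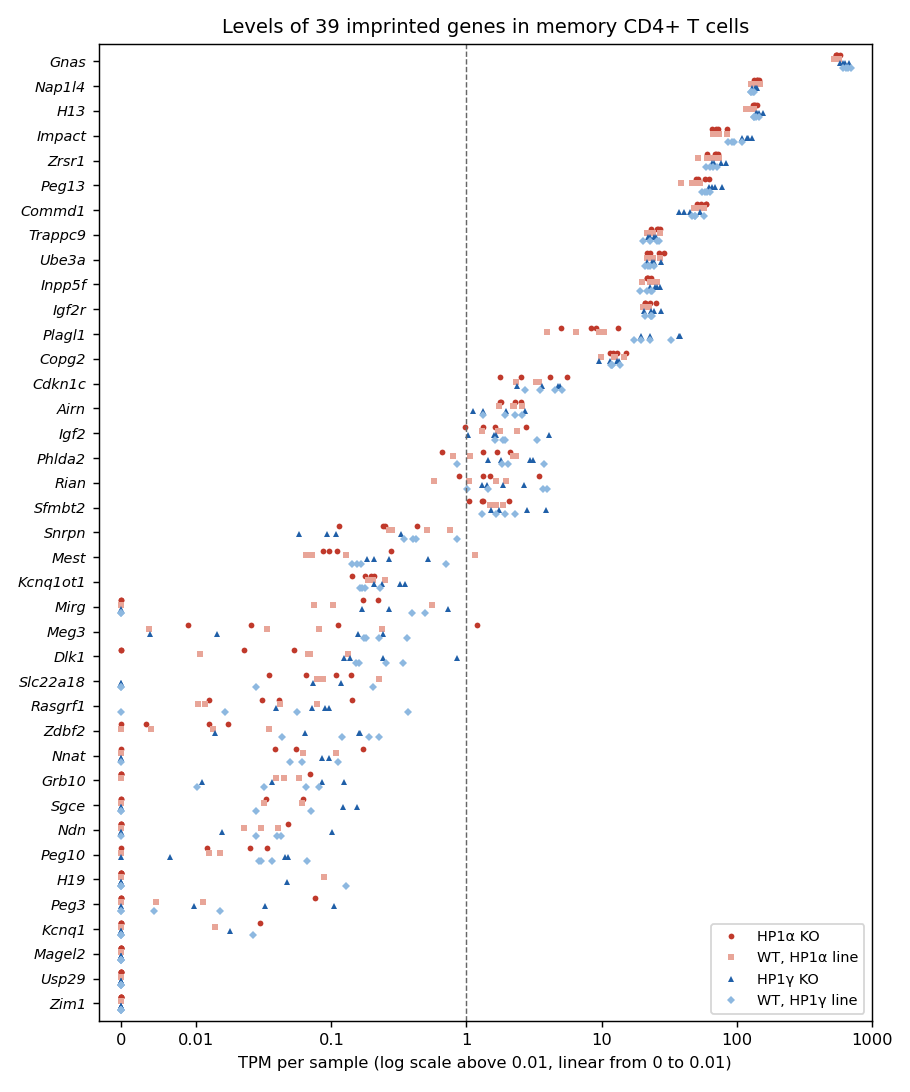
TPM of the 39 imprinted genes in each of the 16 samples, ordered from top to bottom by mean TPM, on an axis that is linear between 0 and 0.01 TPM and logarithmic above. The dashed line marks 1 TPM. Gnas stands highest, at 529 to 701 TPM, and Magel2, Usp29 and Zim1 lie at 0 in every sample.

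Gnas, which encodes the stimulatory G protein α subunit, was by far the highest, with a mean of 597 TPM (529 to 701), and made up 46.7% of the TPM summed over the 39 genes. Nap1l4, a histone chaperone at the distal end of the Kcnq1 domain, followed with 147, 141, 134 and 142 TPM in HP1α KO and 139, 149, 128 and 143 TPM in the WT littermates. In the HP1γ line it was at 139, 138, 141 and 130 TPM in KO and 129, 135, 132 and 129 TPM in WT. In TPM all 4 groups overlapped. In CPM every HP1α KO sample (164 to 172 CPM) was above every HP1γ KO sample (148 to 151 CPM).
H13, the signal peptide peptidase, was at the same level per length, with 141, 136, 134 and 132 TPM in HP1α KO and 132, 125, 117 and 136 TPM in WT. In the HP1γ line its values were 143, 147, 139 and 157 TPM in KO and 135, 134, 147 and 138 TPM in WT. Mean levels of Nap1l4 (137.3 TPM) and H13 (137.0 TPM) did not differ beyond the spread between samples.
Impact, an inhibitor of the kinase GCN2, averaged 91.2 TPM. Zrsr1, a splicing protein gene that lies inside an intron of Commd1, had 73.3, 71.0, 69.1 and 60.2 TPM in HP1α KO and 74.4, 51.9, 66.9 and 60.7 TPM in WT. It had 83.7, 76.3, 65.6 and 67.7 TPM in HP1γ KO and 67.4, 63.9, 59.4 and 71.7 TPM in WT, again with overlapping groups.

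Below these came the long non-coding RNA Peg13 (mean 57.9 TPM) and Commd1, a COMM domain protein of copper handling and NF-κB control (50.9 TPM). Trappc9, a vesicle tethering subunit (24.3 TPM), the ubiquitin ligase Ube3a (24.0 TPM), the inositol phosphatase Inpp5f (23.1 TPM) and Igf2r, the clearance receptor for IGF2 (22.8 TPM), formed a block whose ranges over the samples overlapped. Plagl1, a zinc finger transcription factor, averaged 17.3 TPM but ranged from 3.98 to 37.9 TPM, and Copg2, a coat protein of COPI vesicles, averaged 12.4 TPM. A lower tier between 1.84 and 3.61 TPM held the cell cycle inhibitor Cdkn1c, the Igf2r antisense RNA Airn, the fetal growth factor Igf2, Phlda2, the snoRNA host Rian and the Polycomb-related gene Sfmbt2. Phlda2 rested on 10 to 46 counts a sample and Airn on 25 to 77, so that their levels were known less well than those above.

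Neighbours within a locus differed widely in level. Igf2r stood at 22.8 TPM and Airn, which runs across it on the opposite strand, at 2.03 TPM. In the Kcnq1 domain, Nap1l4 was at 137.3 TPM, Cdkn1c at 3.61 TPM and Phlda2 at 1.88 TPM, whereas the transporter Slc22a18 (0 to 6 counts a sample) and the potassium channel gene Kcnq1 (0 to 2 counts) were close to absent. The long antisense RNA of that domain, Kcnq1ot1, held 324 to 584 counts a sample but only 0.214 TPM because of its length. At the Dlk1-Meg3 locus, Rian reached 1.86 TPM while Meg3, Mirg and Dlk1 stayed at 0.191, 0.199 and 0.163 TPM. In the Snrpn-Ube3a region, Ube3a was expressed, the spliceosomal gene Snrpn was low (2 to 31 counts, 0.341 TPM), necdin (Ndn) reached 6 counts at most and Magel2 had 0 counts in all 16 samples. Copg2 was expressed and its neighbour Mest, on the opposite strand, had 3 to 13 counts. Igf2 was read at 68 to 199 counts whereas H19, the non-coding RNA that shares its enhancers, had 2 counts at most. Reads of genes on opposite strands can be told apart with a stranded kit, but the strand setting of the counting is not given in the sources used here. Igf2 and Commd1 each share sequence with an annotated gene on the same strand, so that their counts may hold reads of both.

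The remaining low genes were the growth factor receptor adaptor Grb10 (0 to 11 counts), the Ras exchange factor Rasgrf1 (0 to 15 counts), the retrotransposon-derived gene Peg10 (0 to 9 counts) and Zdbf2 (0 to 38 counts). The 8 silent genes were Kcnq1, H19, the zinc finger gene Peg3, Nnat, Sgce, Usp29, Zim1 and Magel2, and the last 3 had 0 counts in every sample. At 3 counts this allows up to 0.07503 to 0.1137 CPM, depending on the sample, and covers counting error only. All genes of the Peg3 domain among the 39 (Peg3, Usp29 and Zim1) were silent.

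The question of which imprinted genes stay silent without HP1 was put to the genes with no more than 3 counts in all 4 WT samples of a line. In the HP1α line 12 genes met this, and 10 of them remained at or under 3 counts in all 4 KO samples. The other 2 were Peg10, with 2, 0, 5 and 4 counts in KO and 0, 2, 0 and 2 in WT, and Ndn, with 0, 0, 4 and 0 counts in KO and 0, 2, 2 and 3 in WT. Neither went above 5 counts, KO and WT overlapped for both, and no fold is given at so few counts. This was 16.7% of the silent imprinted genes, against 3.56% of 37324 genes silent in WT over the whole table. The shares were not matched for level in WT, where only 3 of the 12 genes were at 0 counts in all 4 samples. Ndn held fewer counts in sum in KO (4) than in WT (7). In the HP1γ line 8 genes were silent in WT and all 8 stayed so in KO (0% above the limit, against 3.18% of 37079 genes). Dlk1, Peg10, Ndn and Slc22a18, silent in WT samples of the HP1α line, were not among the 8, since at least one WT sample of the HP1γ line held over 3 counts.

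In memory CD4+ T cells without HP1α, no imprinted gene passed the test for a change. Of the 39, 21 had enough counts to be tested by edgeR's quasi-likelihood test, 10 with a log2 fold change above 0 and 11 below. Their median log2 fold change was -0.02, against 0.00 for all genes tested. Called genes, those with an adjusted p under 0.05, numbered 0 of 21, and 0% of 14881 genes were called in this comparison. DESeq2 called 0 of 36. At an unadjusted p under 0.05 there was 1 gene, Peg13, by edgeR and 1 by DESeq2, and the unadjusted share over all genes was 4.27%.

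Peg13 read 173, 186, 157 and 151 CPM in HP1α KO and 160, 136, 123 and 155 CPM in WT. Of the KO samples 2 stood above every WT sample, and the groups overlapped. This gave a log2 fold change of 0.21 (SE 0.096, 95% interval 0.00 to 0.43, edgeR adjusted p = 0.946). Gnas, the highest of the genes, was at 552, 553, 597 and 593 CPM in HP1α KO and at 568, 533, 623 and 549 CPM in WT. These groups overlapped throughout, and its interval, from -0.12 to 0.14 on the log2 scale, was among the narrowest.
The median standard error over the 21 genes was 0.112 on the log2 scale. The widest estimates were those of Rian (0.30, SE 0.525), Snrpn (-0.83, SE 0.474) and Phlda2 (-0.13, SE 0.455). These rested on single samples: Rian turned to -0.54 without HP1α KO replicate 2, Phlda2 turned to 0.12 without HP1α KO replicate 4, to 0.10 without WT replicate 1 and to 0.09 without WT replicate 3, and Snrpn moved to -0.48 without WT replicate 1. Not one of the 36 genes with a count had KO and WT samples that did not overlap, where 1.18% of genes with a count had all KO samples above and 1.16% all KO samples below.

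**Figure D2:**
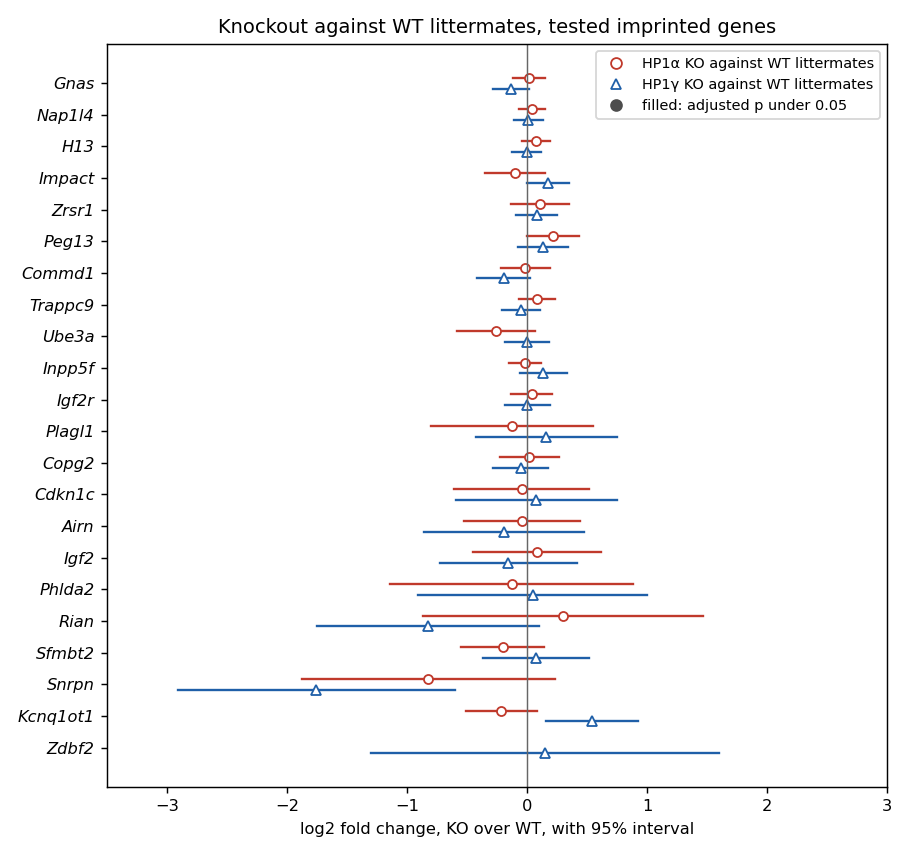
Log2 fold change of the tested imprinted genes in HP1α KO (red circles) and HP1γ KO (blue triangles) against the WT littermates of each line, with 95% intervals from edgeR, ordered by mean TPM. Filled symbols would mark an adjusted p under 0.05 and none is filled. The intervals of Snrpn and Kcnq1ot1 in HP1γ KO leave 0 out, and that of Peg13 in HP1α KO does so narrowly, with its lower bound at 0.00067.

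HP1γ deficiency gave 0 called genes among the 22 imprinted genes tested, where 0.327% of 14975 genes were called. DESeq2 also called 0 of 36. Log2 fold changes were above 0 for 12 and below 0 for 10 genes, with a median of 0.00. At an unadjusted p under 0.05 there were 2 genes by edgeR, Snrpn and Kcnq1ot1, and 3 by DESeq2, and over all genes the unadjusted share was 11.9%. Snrpn entered the test mainly through its WT samples, so that its place in this count is a description.

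Snrpn, which encodes the spliceosomal protein SmN and is usually transcribed from the paternal allele, had 0.114, 0.102, 0.0653 and 0.359 CPM in HP1γ KO. In the WT littermates it had 0.421, 0.484, 0.942 and 0.486 CPM. All 4 KO samples were lower than all 4 WT samples, although KO replicate 4 came close to the lowest WT sample.
The log2 fold change was -1.76 (SE 0.520, 95% interval -2.92 to -0.61), with an adjusted p = 0.261 by edgeR and an exact permutation p = 0.0286, two-sided, the smallest that 4 against 4 samples can give. Behind these values stand 2 to 14 counts a sample in KO and 13 to 31 in WT. The gene thus entered the test mainly through its WT samples, and its fold change is a description. Snrpn shares sequence with Snurf and a predicted gene on the same strand, and reads of these cannot be fully told apart. In the HP1α line Snrpn read 0.125, 0.286, 0.294 and 0.489 CPM in KO and 0.875, 0.327, 0.624 and 0.316 CPM in WT, with overlap.

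Kcnq1ot1, the antisense RNA that silences genes of the Kcnq1 domain in cis in the embryo, had 20.7, 18.6, 14.04 and 12.0 CPM in HP1γ KO and 10.6, 11.1, 13.4 and 10.1 CPM in WT. KO replicates 1, 2 and 3 stood above all WT samples and replicate 4 overlapped with them. KO exceeded WT by a log2 fold change of 0.54 (SE 0.173, 95% interval 0.15 to 0.92, edgeR adjusted p = 0.315). KO replicates 1, 2 and 3 were also the libraries with the fewest counts of the HP1γ line (26694045, 29145885 and 31320448), and the part of depth in this value was not tested.
In the HP1α line Kcnq1ot1 read 10.7, 12.3, 12.6 and 8.55 CPM in KO and 12.2, 14.7, 11.9 and 12.5 CPM in WT (log2 fold change -0.22, edgeR adjusted p = 0.946). Other genes of its domain did not pass the test in HP1γ KO. Cdkn1c had a log2 fold change of 0.08 (SE 0.301), Phlda2 one of 0.04 (SE 0.430) and Nap1l4 one of 0.01 (SE 0.055), and Kcnq1 and Slc22a18 were too low to be tested by edgeR.

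Meg3, the maternal non-coding RNA of the Dlk1-Meg3 locus, was too low for the test but its groups did not overlap in the HP1γ line. It had 0.152, 0.0340, 0.131 and 0.205 CPM in KO and 0.421, 0.280, 0.213 and 0.365 CPM in WT, from 1 to 8 and 7 to 13 counts a sample. The exact permutation p = 0.0286, two-sided, is the smallest that 4 against 4 samples can give and follows from the lack of overlap. The highest KO and the lowest WT sample were almost level. Its neighbour Rian had 1.48, 1.16, 1.24 and 2.18 CPM in KO and 4.34, 1.22, 1.55 and 3.83 CPM in WT, with overlap (log2 fold change -0.83, SE 0.417, edgeR adjusted p = 0.466).
Among the 36 genes with a count, 2 (Snrpn and Meg3) had all HP1γ KO samples below all WT samples, and 0 had them above. Over all genes with a count, 2.38% were below and 2.52% above. In HP1γ KO the haemoglobin and platelet marker sum lay between 166 and 2410 TPM and in WT between 84.1 and 1040 TPM, and its part in these values was not tested.

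**Figure D3:**
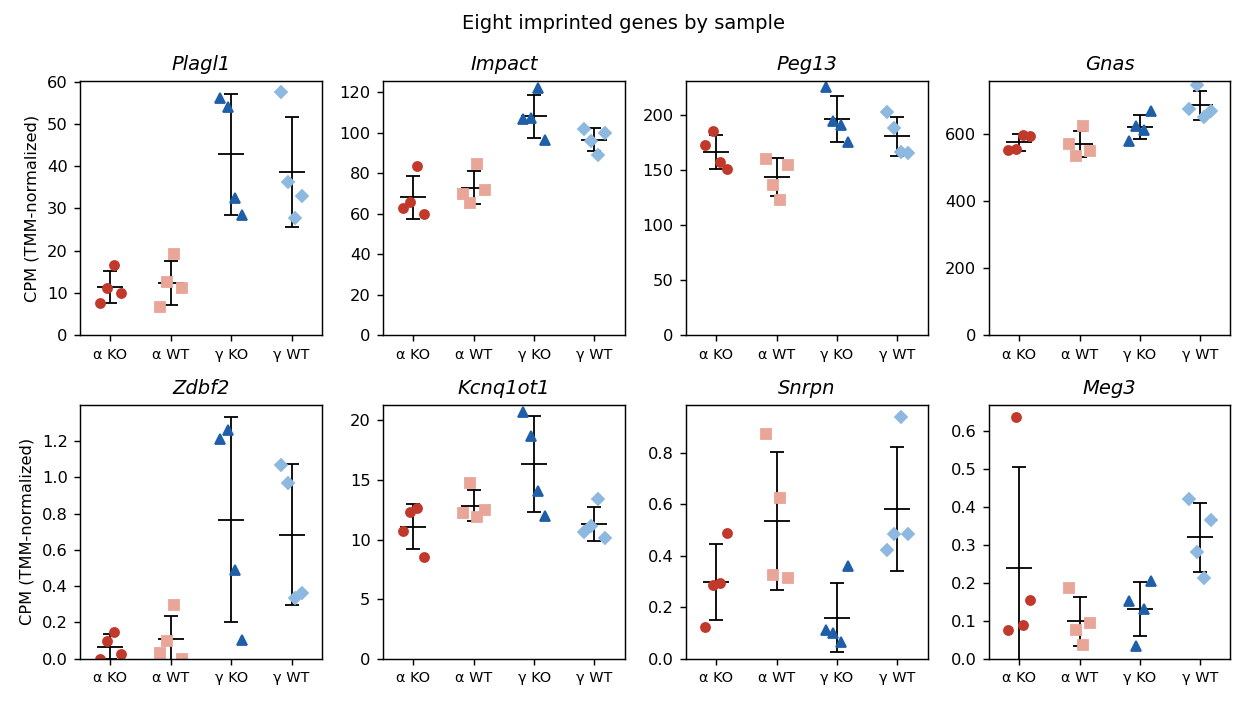
CPM of 8 imprinted genes in each sample, with the mean and SD of each group of 4 as horizontal and vertical black bars, each axis starting at 0, where the bars of Zdbf2 and Meg3 are cut. The α and γ groups are samples of the HP1α and HP1γ lines. Plagl1, Impact, Peg13 and Gnas are lower in the WT samples of the HP1α line than in those of the HP1γ line, and Snrpn and Meg3 are lower in HP1γ KO than in its WT littermates without overlap.

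No imprinted gene passed the test of whether HP1α loss and HP1γ loss acted on it differently. Of 22 genes tested in one fit of all 16 samples, 0 were called by edgeR, with 1 at an unadjusted p under 0.05, and DESeq2 called 0 with 2 unadjusted. The share called over all genes was 0.0507%, and 9.58% had an unadjusted p under 0.05. The gene with the smallest p was Kcnq1ot1, whose difference between the effects (HP1α minus HP1γ) was -0.75 (SE 0.229, 95% interval -1.23 to -0.26, edgeR adjusted p = 0.379). For Snrpn the difference was 0.95 (SE 0.745, edgeR adjusted p = 0.737). Its HP1α KO samples held 5.233 to 19 counts and their WT littermates 10 to 28. Snrpn thus entered the tests of both knockouts mainly through WT samples, and its values below 0 in both are a description.

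The lines themselves were compared in their WT samples. Plagl1, Impact, Zdbf2, Gnas and Peg13 were lower in the HP1α line than in the HP1γ line, and not one imprinted gene was called higher. Of the 22 genes tested by edgeR, Zdbf2 passed the filter on low counts through 1 group only and had to differ to be tested, so that it is left out of the counts that follow. Of the other 21, 4 were called, where 12.8% of 14804 genes were called and 8.25% were called lower. Of these 4, 3 are usually transcribed from the paternal allele, out of 10 such genes tested. EdgeR called 0 of 10 usually maternal genes, while DESeq2 also called Rian, which is usually maternal. A difference by parental allele was not tested. The median log2 fold change of the 22 genes, Zdbf2 included, was -0.12, against 0.02 for all genes tested. With an absolute log2 fold change above 1 as well, Plagl1 was left beside Zdbf2, where the share over all genes was 1.9%. At an unadjusted p under 0.05 there were 5 of 21, where the share over all genes was 29.9%.

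Plagl1 (ENSMUSG00000019817, chr10:12936248-13007438 of GRCm39) had 6.65, 12.6, 19.1 and 11.2 CPM in WT samples of the HP1α line. In WT samples of the HP1γ line it had 57.6, 36.1, 27.9 and 32.9 CPM. The groups were well apart, the highest of the first being below the lowest of the second.
The log2 fold change was -1.64 (SE 0.297, 95% interval -2.30 to -0.99, edgeR adjusted p = 0.00906), 3.12-fold lower in the HP1α line. The KO samples fell the same way, at 7.55, 11.2, 16.6 and 9.99 CPM in HP1α KO and 56.2, 54.1, 32.5 and 28.4 CPM in HP1γ KO. KO and WT overlapped within each line, with a log2 fold change of -0.13 (SE 0.304) for HP1α KO and 0.16 (SE 0.265) for HP1γ KO.
Plagl1 is a zinc finger gene whose promoter CpG island is methylated on the maternal copy. Of 13 tested genes within 1 Mb of it, 3 were called and all were lower in the HP1α line, namely Utrn, Stx11 and B230208H11Rik. Over all genes tested 12.8% were called and 8.25% were called lower. Called neighbours were also found around genes that were not called themselves, 6 of 26 around Igf2 and 6 of 29 around H13. In each case 4 of the 6 were lower in the HP1α line, while 0 of 12 were called around Igf2r. Around the other genes the neighbours mostly did not pass the test. Of 10 tested neighbours of Zdbf2, 1 was called (Nrp2) and it was higher in the HP1α line, as was 1 of 17 around Gnas (Vapb), and 0 of 9 were called around Peg13.

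Impact (ENSMUSG00000024423) had 69.9, 65.5, 84.5 and 71.6 CPM in WT samples of the HP1α line and 102, 95.8, 88.8 and 99.7 CPM in those of the HP1γ line. The groups did not overlap. The HP1α line had a log2 fold change of -0.41 (SE 0.089, edgeR adjusted p = 0.0176), 1.33-fold lower. In KO samples it had 62.8, 65.6, 83.8 and 60.1 CPM in the HP1α line and 107, 107, 122 and 96.6 CPM in the HP1γ line. The KO samples were thus ordered in the same way. Of 10 tested genes within 1 Mb, 1 was called, in the same direction (Npc1).

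Zdbf2 (ENSMUSG00000027520, chr1:63312363-63353735), a paternally expressed zinc finger gene, was barely read in the HP1α line. Its WT samples there had 0.0312, 0.101, 0.294 and 0 CPM, from 1, 4, 8 and 0 counts. WT samples of the HP1γ line had 1.07, 0.968, 0.334 and 0.365 CPM, from 33, 38, 11 and 12 counts, all of them higher.
The log2 fold change was -2.71 (SE 0.737, 95% interval -4.34 to -1.08, edgeR adjusted p = 0.0383). Zdbf2 entered the test through the HP1γ-line samples alone and had to differ to do so, so that its call is a description. HP1α KO samples held 0, 3, 5 and 1 counts and HP1γ KO samples 32, 37, 15 and 4 counts, and in the HP1γ line the log2 fold change of KO over WT was 0.14 (SE 0.653).

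Gnas (ENSMUSG00000027523, chr2:174126022-174188537) had 674, 746, 650 and 667 CPM in WT samples of the HP1γ line, all above the 533 to 623 CPM of the WT samples of the HP1α line given above. This amounted to a log2 fold change of -0.27 (SE 0.074, edgeR adjusted p = 0.0400), 1.20-fold lower. HP1γ KO samples had 578, 621, 611 and 666 CPM and overlapped with HP1α KO.
Peg13 (ENSMUSG00000106847, chr15:72677449-72682173) had 203, 188, 166 and 166 CPM in WT samples of the HP1γ line, above the 123 to 160 CPM of the HP1α line. The log2 fold change was -0.33 (SE 0.098, edgeR adjusted p = 0.0482), 1.26-fold lower. In HP1γ KO it had 226, 195, 191 and 176 CPM.
Peg13 lies inside Trappc9 on the same strand and shares sequence with it, and its estimated counts were not whole in 100% of samples, so that reads had been divided between the genes. Trappc9 itself did not pass the test (0.02, SE 0.080, edgeR adjusted p = 0.905).

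These calls depended on single samples to different degrees, and so did the number of calls over all genes. That number was 1896 of 14804 in the main fit. Without replicates 1, 2 or 4 of the HP1α line it was 573, 1101 and 1040, and without replicates 1 or 2 of the HP1γ line 613 and 626. Without replicate 3 of the HP1α line it was 1720, and without replicates 3 or 4 of the HP1γ line 1782 and 2185. Plagl1 was called in all 8 fits that left out 1 WT sample (adjusted p 0.00601 to 0.0309). Impact was called in all but the fits without replicate 1 of the HP1α line or replicate 1 of the HP1γ line (highest adjusted p 0.0664). Gnas and Zdbf2 each lost the call in 5 of the 8 fits, without replicates 1, 2 or 4 of the HP1α line or replicates 1 or 2 of the HP1γ line (up to 0.116 and 0.119). Peg13 lost it in 7 of the 8, every one except that without replicate 4 of the HP1γ line (up to 0.145).

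Counting also genes too low for the test, 9 of 36 had every WT sample of the HP1α line below every WT sample of the HP1γ line, and 0 were above. Over all genes with a count these shares were 6.48% and 5.25%. Beside the 5 genes above they were H13, Meg3, Dlk1 and Peg10.
H13 was at 159, 150, 151 and 167 CPM in the HP1α line and 173, 169, 171 and 167 CPM in the HP1γ line (log2 fold change -0.12, SE 0.059, edgeR adjusted p = 0.203). Its highest sample of the HP1α line (166.69 CPM) and lowest of the HP1γ line (166.74 CPM) were almost level. Meg3 had 0.187, 0.0756, 0.0367 and 0.0947 CPM in the HP1α line, below the HP1γ-line values given above. Dlk1, a transmembrane protein of the Notch ligand family, had 1, 1, 2 and 2 counts against 5, 8, 6 and 4. Peg10 had 0, 2, 0 and 2 counts against 5, 5, 4 and 9.
Rian, in the same locus as Meg3 and Dlk1, had 0.750, 1.76, 1.54 and 0.884 CPM in the HP1α line and overlapped with the HP1γ line. Its log2 fold change was -1.14 (SE 0.442, edgeR adjusted p = 0.113), and DESeq2 called it as a sixth gene.

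**Figure D4:**
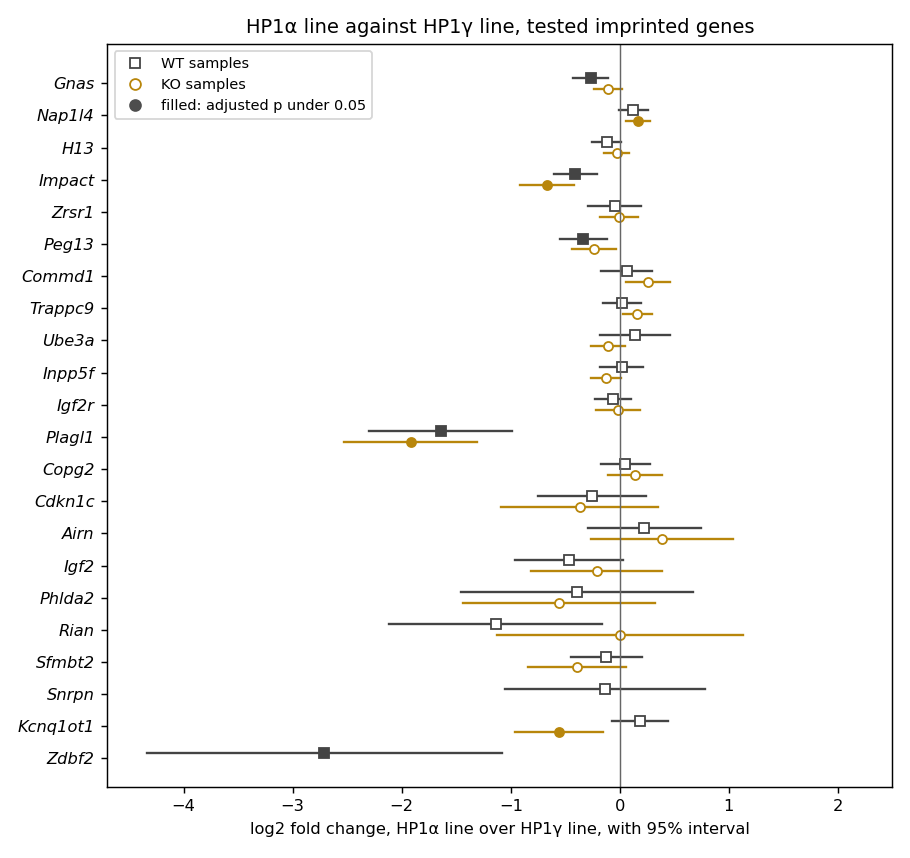
Log2 fold change of the tested imprinted genes in the HP1α line over the HP1γ line, in WT samples (grey squares) and in KO samples (ochre circles), with 95% intervals from edgeR. Filled symbols mark an adjusted p under 0.05. Plagl1 and Impact are filled on the left in both comparisons, and in KO samples Kcnq1ot1 is filled on the left and Nap1l4 on the right.

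The same comparison of lines was made in the KO samples, a test added after the WT result had been seen. The KO samples differ in the lost HP1 protein as well as in line, and 32.8% of 15020 genes were called. Among 20 imprinted genes tested 4 were called, which is 20% and under that share. Plagl1 (log2 fold change -1.92, SE 0.275, edgeR adjusted p = 0.00161) and Impact (-0.67, SE 0.111, edgeR adjusted p = 0.00279) were lower in the HP1α line, as in WT samples. Kcnq1ot1 was lower (-0.56, SE 0.184, edgeR adjusted p = 0.0397), whereas its value in WT samples was 0.18 (SE 0.117, edgeR adjusted p = 0.330). Nap1l4 was higher (0.17, SE 0.049, edgeR adjusted p = 0.0244). Gnas (-0.11, edgeR adjusted p = 0.181) and Peg13 (-0.24, edgeR adjusted p = 0.0658) were not called, and Zdbf2 was too low in these samples to be tested. In KO samples 3 of 36 genes were above and 3 below without overlap, where the shares over all genes were 9.42% and 9.89%.

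Genes of the machinery that keeps imprints were expressed at higher levels than most imprinted genes. Of 26 such genes 22 had a mean of at least 1 TPM and 3 were silent, and the highest were Trim28 (203 TPM), the H3K9 methyltransferase Ehmt2 (164 TPM), the Polycomb gene Eed (145 TPM), Ctcf (131 TPM) and Atrx (115 TPM). In either knockout 0 of the 22 tested were called, where 0% and 0.327% of all genes were called in HP1α KO and HP1γ KO. At an unadjusted p under 0.05 there were 0 and 5, where the unadjusted share over all genes was 4.27% and 11.9%. All 5 were higher in HP1γ KO. Between the WT lines 3 of 22 were called by edgeR (13.6%, near the 12.8% of all genes). The maintenance methyltransferase Dnmt1 (log2 fold change 0.32, adjusted p = 0.0415) and Setdb1 (0.36, adjusted p = 0.0214) were higher in the HP1α line, and Eed (-0.36, adjusted p = 0.0231) was lower.

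Of 38 further imprinted genes outside the 39, 14 were expressed and 8 silent, led by Tspan32 (144 TPM), Pon2 (37.9 TPM), Osbpl5 (24.9 TPM), Atp10a (23.6 TPM) and Tssc4 (16.5 TPM). In HP1α KO and HP1γ KO 0 of 16 and 0 of 18 tested were called, where 0% and 0.327% of all genes were called. Between the WT lines 3 of 17 were called by edgeR (17.6%, where 12.8% of all genes tested were called). Tspan32 (0.38, adjusted p = 0.0257) and Tssc4 (0.35, adjusted p = 0.0336), both in the Kcnq1 domain, were higher in the HP1α line. Htr2a, a serotonin receptor gene, was lower (-2.24, adjusted p = 0.0448) from a mean of 0.172 CPM in the HP1α line and 0.815 CPM in the HP1γ line. At these levels Htr2a may have entered the test through the HP1γ-line samples alone, so that its call is a description.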

How the data were processed

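RNA-seq was read from splenic memory CD4+ T cells in 16 samples, grouped by the genotype in the submitters' titles. The submitters' treatment label names transferred cells, which goes against the study's account of these samples, and was left aside. The authors trimmed reads with Trim Galore, aligned them with STAR and quantified genes with Salmon on GRCm39. They deposited estimated counts per gene without normalization, of which 11.6% are not whole, and TPM, which keep no depth. Coordinates are from GENCODE (GRCm39), which lists 38 of the 39 genes.

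Estimated counts were rounded and tested with edgeR 4.0.16 in R 4.3.3 (TMM, filterByExpr with a minimum count of 10, glmQLFit, glmQLFTest) over all genes, with Benjamini-Hochberg adjustment. Each KO was compared with its WT littermates in 8 samples, the difference between the knockouts in all 16, and the WT groups with each other. Called means an adjusted p under 0.05. Shared sequence means at least 150 nt at 98% identity or more. Alternatives were DESeq2 1.42.0, RLE size factors, no filter, a fit of all 16 samples, a minimum of 10 counts throughout, a replicate block, limma 3.58.1 on log2(TPM + 1) and log2(TPM + 0.1), and leaving out each sample.

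All 39 genes are named. Every sample is given for genes called in a comparison, for those whose KO and WT samples do not overlap and for the 5 with the highest TPM. From the other lists the 5 highest genes and every called gene are named. Further samples and genes were given after their values had been seen. The genes and lists were chosen with earlier results of these data known. The tests were checked on simulated counts. Each of the 24 replicate pairs within a group differed beyond sampling noise, with a chi-square per gene of at least 10.35. No sample was left out of the main comparisons.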

Additional observations from a re-analysis of the deposited data

Results flagged for a closer look

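In 4 groups of 4 samples, 1 sample stood apart from the other 3 by Dixon's criterion. The check covered the 22 tested genes in 88 groups, and chance alone gives about 1 in 20, or 4.4. Rian was at 3.56 CPM in HP1α KO replicate 2, with the next sample at 0.912 CPM. Snrpn was at 0.359 CPM in HP1γ KO replicate 4, with the next at 0.114 CPM, and at 0.942 CPM in WT replicate 3 of the HP1γ line, with the next at 0.486 CPM. Ube3a was at 59.4 CPM in WT replicate 2 of the HP1α line, with the next at 39.3 CPM.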

How the results depend on the processing

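No imprinted gene was called in either knockout or in the difference between them under any alternative, leaving out of single samples included. Between WT samples of the lines, edgeR called 5 genes, Zdbf2 included, whose call is a description. The 5 became 3 without a filter on low counts, 3 with limma on log2(TPM + 1) and 3 with limma on log2(TPM + 0.1). Over all genes, 1896 of 14804 were called in the main fit and 1765 of 27147 without the filter. With limma 1175 and 1210 of 14804 were called. The 5 became 2 with an absolute log2 fold change above 1, where 282 of 14804 genes were called. Leaving out a sample gave 1 to 5, where 573 to 2185 genes were called. KO samples of the lines, a comparison chosen after seeing the data, differ in the lost HP1 protein as well. There 4 were called, where 4921 of 15020 genes were called, and 2 of the 4 were shared with the 5. Kcnq1ot1 was called at -0.56, whereas in WT samples it was at 0.18 and not called. DESeq2 called 6 imprinted genes, and 2823 of 27147 over the whole table. All 16 samples in one fit gave 5, and 2537 of 15776 over the whole table. Plagl1 was called under every alternative except the replicate block (adjusted p = 0.0518). Other values of single genes moved beyond their standard error, without a change of call, in 6 of 335 refits for HP1α KO, 4 of 350 for HP1γ KO, 2 of 504 for the difference and 4 of 371 for the WT lines, where 33 lost a call and 2 gained one. With a limit of 10 counts in every sample 13 genes were silent.

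With the replicate number as a block, 0 of the 5 genes stayed called between the WT lines, where 577 of 14804 genes were called. Samples of the same number share only a number: their deviations correlated by 0.0847 to 0.355 in the HP1α line, 0.0497 to 0.170 in the HP1γ line and -0.201 to -0.0830 between the WT groups, and not every sample correlated best with its own number. The block changed no other call.

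Depth limits what can be said of the 12 low and 8 silent genes, most of which the filter on low counts left out of the edgeR test. For genes at a few counts a sample the absence of a call does not show that levels were equal.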
